A study of Mus musculus with 16 samples.

Results

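Bone marrow derived mast cells (BMMCs) that lack the tyrosine phosphatase PEP were compared with wild-type BMMCs 1 h after antigen. The samples were those treated with IgE and DNP and without dexamethasone, 4 of the 16 in the series, with 2 PEP+/+ and 2 PEP-/- libraries. The cells were grown for 4 weeks with stem cell factor and IL3 from marrow of male C57BL/6 mice aged 8 to 10 weeks, and the genotype label is the only allele given. All 4 cultures received IgE for 3 h (0.05 µg/ml in the labels, a higher concentration in the study's methods) and DNP at 200 ng/ml for 1 h. Numbered samples formed replicate set 1 and lettered samples replicate set 2. How many mice stood behind each culture is not given in the sources used here, so the p-values measure a spread between libraries. That spread is what remained over all 16 libraries after the mean of each condition and the replicate set were fitted. The study calls the replicates biological, and the labels only replicates. The other 12 libraries (IgE alone, IgE with dexamethasone, and IgE, DNP and dexamethasone, in both genotypes) were used to share the estimate of dispersion and to set the genotype difference beside its value in other treatments.

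PEP, encoded by Ptpn22, is a cytoplasmic tyrosine phosphatase of blood cells, best known for removing activating phosphates from Src-family and Syk-family kinases below antigen receptors in lymphocytes. In mast cells, antigen cross-links IgE held by the high-affinity receptor FcεRI. The receptor signals through Lyn, Syk and the adaptor Lat to calcium, MAP kinases, NFAT and NF-kB, and the cells release granules and switch on cytokine and chemokine genes.

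The targeted gene was examined first. Ptpn22 stood at 80.0 and 104 CPM (counts scaled to library size by the trimmed mean of M-values) in PEP+/+ IgE DNP replicates 1 and 2, and at 1.40 and 3.03 CPM in the PEP-/- replicates. The genotypes did not overlap, and the log2 fold change was -5.32 ± 0.31 (SE, adjusted p = 1.11e-06, edgeR quasi-likelihood test). The PEP-/- values came from 17 and 55 reads. In the 6 PEP-/- libraries of the other treatments, Ptpn22 lay between 0 and 1.24 CPM, below both of these. Which part of the gene is deleted is not stated in the sources used here.

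Total reads on genes were 11837400 and 9822410 in the PEP+/+ libraries and 12817165 and 20547141 in the PEP-/- libraries, within the range of all 16 (8612531 to 22143526). PEP+/+ replicate 1 stood apart. RNAs without a poly(A) tail (replication-dependent histone mRNAs and small structural RNAs) took 0.0605% of its reads, against 0.0275% in PEP+/+ replicate 2 and 0.0159% and 0.0289% in PEP-/- replicates 1 and 2. A larger excess lay at 6 loci that share sequence with ribosomal RNA, which also has no tail. These loci took 8.89% of the reads of PEP+/+ replicate 1 and between 0.617% and 0.969% in the other 3. Nearly all of it was Gm42418, at 71490 CPM against 3414, 1496 and 5975 CPM, and Lars2, at 25860 CPM against 3032, 4854 and 4470 CPM. PEP-/- IgE DNP DEX replicate 2 was the only other library above 2% at these loci, so an excess of this kind occurred once in each genotype.

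**Figure D1:**
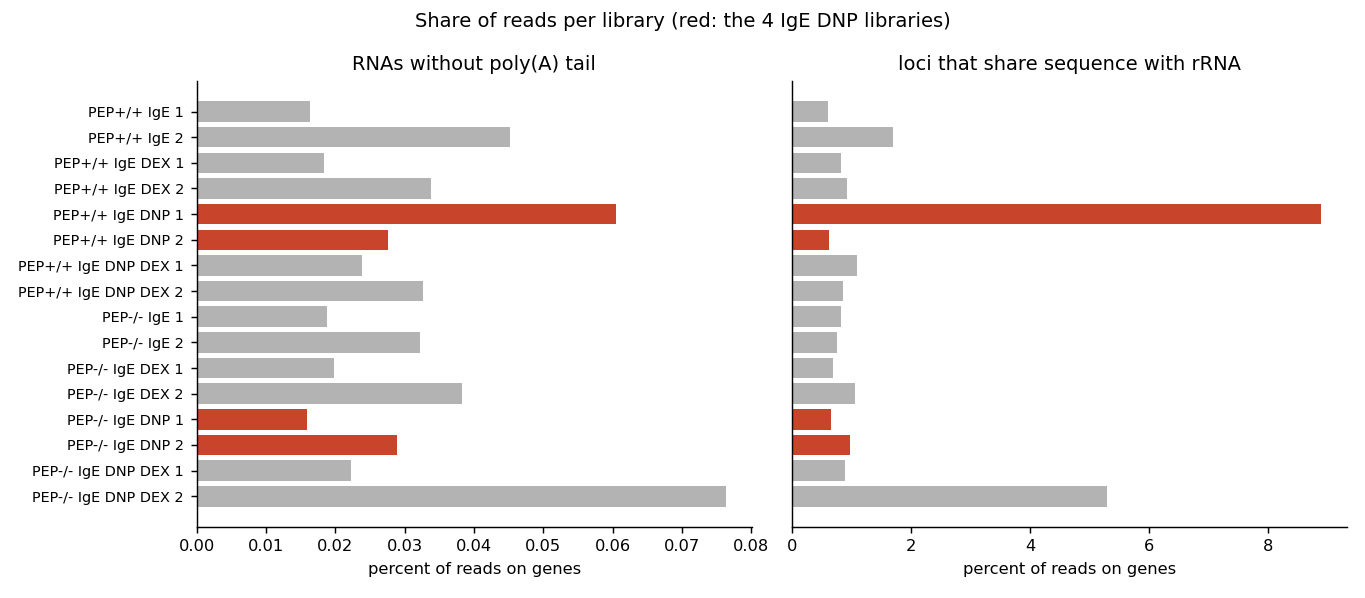
Percent of reads on genes taken by RNAs without a poly(A) tail (left) and by 6 loci that share sequence with ribosomal RNA (right), 1 bar for each of the 16 libraries, named by genotype, treatment and replicate. The 4 IgE DNP libraries are red, and PEP+/+ IgE DNP replicate 1 has the highest bar on the right at 8.89%.

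No RNA without a poly(A) tail passed the genotype test, 0 of the 80 tested by edgeR, a count near the 1.86% called over all genes. The set was drawn up from gene lists and annotation, and whether each of its RNAs lacks a tail in these cells was not tested. The 4 with the highest levels were Rn7sk, Rpph1, Hist1h1c and H2afx. Rn7sk, the RNA of the 7SK particle, stood at 222 CPM in PEP+/+ replicate 1, 28.5 in PEP+/+ replicate 2, and 5.83 and 36.7 in PEP-/-. Its log2 fold change was -3.52 ± 1.08 (adjusted p = 0.128) and became 0.18 without PEP+/+ replicate 1. Rpph1, the RNA of RNase P, stood at 89.8, 7.99, 2.13 and 9.03 CPM in the same order. Its log2 fold change of -3.69 became 0.08. The histone genes Hist1h1c (49.5 and 84.2 CPM in PEP+/+, 74.3 and 106 in PEP-/-) and H2afx (32.1 and 33.6, 26.4 and 30.4) did not carry the excess. Other histone genes differed from these, since the median of the 15 tested was -1.3 within set 1 and 0.14 within set 2. Histones together did not carry the excess. They took 0.0116% of the reads of PEP+/+ replicate 1, 0.0131% in PEP+/+ replicate 2, and 0.0116% and 0.0150% in PEP-/-. Small structural RNAs took 0.0489%, 0.0144%, 0.00431% and 0.0138% in the same order.

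Among 13305 genes tested, 248 (1.86%) differed between genotypes at an adjusted p under 0.05, of which 207 (1.56%) were lower and 41 (0.308%) higher in PEP-/-. The model had 1 mean for each of the 8 conditions and the replicate set as a block. All 248 had the same sign within set 1 and within set 2. The lower genes had a median log2 fold change of -0.95 (within sets -0.89 and -0.97) and the higher genes 0.84 (0.85 and 0.71), beside 0.02 over all genes tested. Groups did not overlap for 178 of the 207 and 35 of the 41, where 24.8% of all genes tested did not overlap. The signs, medians and overlaps come from the libraries that gave the calls, so they describe the called genes and are no separate support. Of the gene lists below, ribosome biogenesis held 16 of the lower genes, DNA replication 13, nucleotide synthesis 11 (a list drawn up after the values were seen), serine and one-carbon enzymes 7 and cytokines 4, with some genes in more than 1 list. The other lists were chosen with earlier results of these data known, so their shares are a description too.

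The number of calls depended on the model and on single libraries. Without the replicate block only Ptpn22 passed. In that fit 605 genes had an unadjusted p under 0.05, below the share of 0.05 that no difference would give. DESeq2 with the block called 436 of 11899 (3.66%). Leaving out PEP+/+ replicate 1 left 9 calls (0.0652%), and leaving out PEP-/- replicate 1 also left 9, PEP+/+ replicate 2 120 and PEP-/- replicate 2 only 1. These fits hold 1 library in a group, and all 207 and 41 genes kept their sign in each. The medians without PEP+/+ replicate 1 were -0.92 and 0.81. The genes were chosen from these same libraries, with the same sign in both sets, so kept signs and medians follow from the choice and are no separate support. Taking the untailed RNAs and the 6 loci out of the table gave 237 calls, and entering their share in the model as a covariate gave 48 for the loci and 29 for the untailed RNAs.

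**Figure D2:**
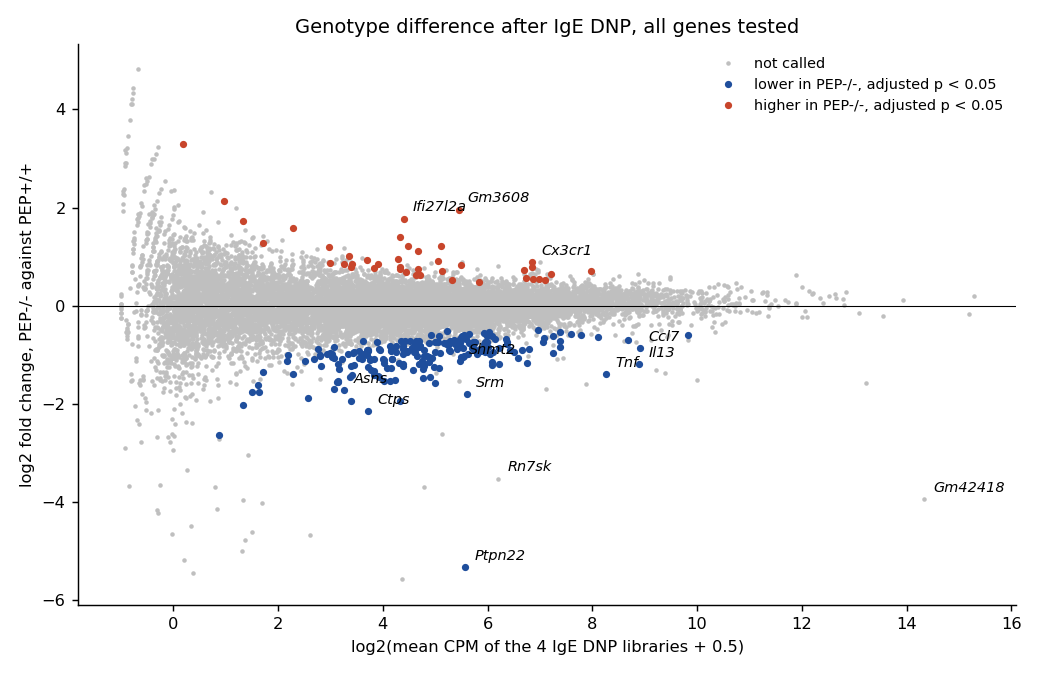
Log2 fold change of PEP-/- against PEP+/+ after IgE DNP (vertical) against the mean level over the 4 libraries as log2(CPM + 0.5) (horizontal) for 13305 genes. The 207 genes lower and 41 genes higher in PEP-/- are coloured, Ptpn22 lies at -5.32, and Gm42418 and Rn7sk, which are high in PEP+/+ replicate 1 alone, lie low and are not called.

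Cytokine genes were lower in PEP-/- where they were called. Of 43 listed cytokines and growth factors 27 were tested, 4 were lower (Csf2, Tnf, Il13 and Osm), none was higher, and the median of the 27 was -0.26. Of 25 chemokines 14 were tested, 1 was lower (Ccl7), and the median was -0.22. Against the 1.56% of all genes called lower, these are 14.8% and 7.14%. In bulk samples, fewer cells that transcribe a gene and less RNA per cell cannot be told apart.

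Tnf, the inflammatory cytokine, had 428 and 464 CPM in PEP+/+ and 156 and 185 CPM in PEP-/-. It was 2.63-fold lower (log2 fold change -1.39 ± 0.15, adjusted p = 0.00129), and it passed without PEP+/+ replicate 1 as well (-1.22, adjusted p = 0.0496). Il13, a type 2 cytokine that acts on airway epithelium and smooth muscle, had 620 and 701 CPM in PEP+/+ and 266 and 317 CPM in PEP-/-, with a log2 fold change of -1.18 ± 0.24 (adjusted p = 0.0227). Both wild-type libraries were above both PEP-/- libraries for these genes, and the replicates of a genotype lay closer together than the genotypes. Ccl7, a chemokine for monocytes and eosinophils, had 570 and 664 CPM in PEP+/+ and 294 and 389 in PEP-/- (-0.86 ± 0.19, adjusted p = 0.0366).

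Osm, an IL-6 family cytokine, had 65.6 and 87.1 CPM in PEP+/+ and 36.9 and 43.8 in PEP-/- (-0.92 ± 0.19, adjusted p = 0.0257). Csf2, which encodes GM-CSF, was the lowest of the 5, at 8.23 and 21.4 CPM in PEP+/+ and 3.28 and 7.65 in PEP-/-. Its log2 fold change was -1.41 ± 0.30 (adjusted p = 0.0384), and DESeq2 did not call it (adjusted p = 0.122). Without PEP+/+ replicate 1 the log2 fold changes of Il13, Ccl7, Osm and Csf2 were -1.13, -0.82, -1.04 and -1.56, with adjusted p of 0.187, 0.24, 0.11 and 0.194. Of the other tested cytokines, Il6 (-0.69), Il4 (-0.53), Il5 (-0.26) and Il9 (-0.30) did not pass. Inhba (0.98), Ltb (0.91) and Il33 (0.52) lay in the other direction and did not pass either. Of the 27 tested genes of the list 17 had a negative log2 fold change. The median was -0.64 for interleukins and colony-stimulating factors, 0.07 for the TNF family and 0.07 for growth factors. Ptgs2, the inducible cyclooxygenase, overlapped between genotypes (62.7 and 41.2 CPM against 38.9 and 42.8) and had an adjusted p of 0.848. Rplp0, a ribosomal protein gene commonly used as a reference, stood between 1566 and 1776 CPM in all 4 libraries, and Ptgds did not exceed 0.0946 CPM in any.

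**Figure D3:**
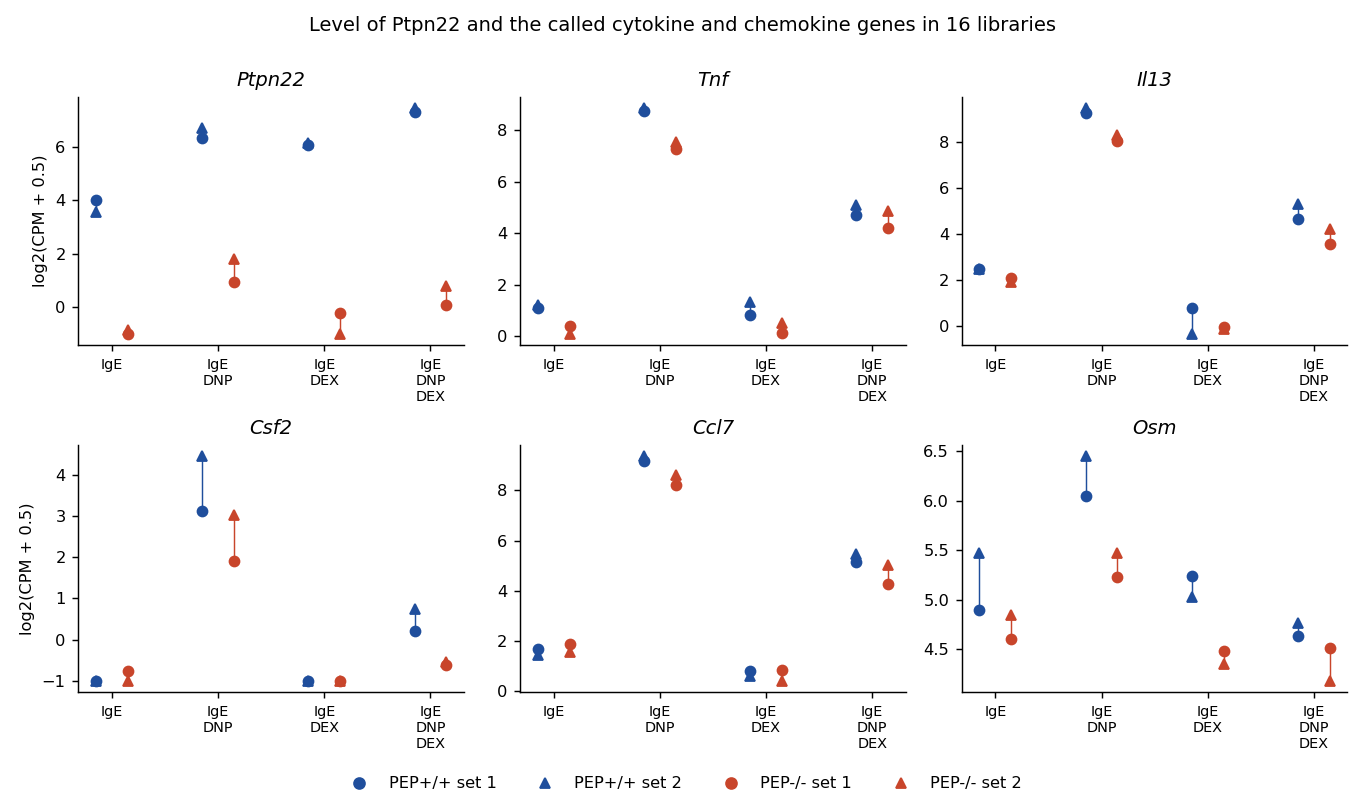
Levels of Ptpn22, Tnf, Il13, Csf2, Ccl7 and Osm as log2(CPM + 0.5) in all 16 libraries, by treatment, with PEP+/+ in blue, PEP-/- in red, circles for set 1 and triangles for set 2. After IgE DNP both PEP+/+ points lie above both PEP-/- points in every panel, for example 428 and 464 against 156 and 185 CPM for Tnf.

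The promoters of the called cytokine genes with the highest levels are shown because NFAT is the calcium-dependent factor that classically acts on them. The sequences are RefSeq promoters on GRCm38.p6, the 250 bases before the transcription start, both on the minus strand. Capitals mark GGAAA, the NFAT core, or its reverse complement.
Tnf (chr17:35202008-35202257): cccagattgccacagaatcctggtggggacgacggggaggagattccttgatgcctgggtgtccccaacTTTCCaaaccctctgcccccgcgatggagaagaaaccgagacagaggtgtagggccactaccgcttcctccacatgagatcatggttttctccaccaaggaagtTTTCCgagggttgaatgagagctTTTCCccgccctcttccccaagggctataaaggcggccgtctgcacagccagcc
Il13 (chr11:53634703-53634952): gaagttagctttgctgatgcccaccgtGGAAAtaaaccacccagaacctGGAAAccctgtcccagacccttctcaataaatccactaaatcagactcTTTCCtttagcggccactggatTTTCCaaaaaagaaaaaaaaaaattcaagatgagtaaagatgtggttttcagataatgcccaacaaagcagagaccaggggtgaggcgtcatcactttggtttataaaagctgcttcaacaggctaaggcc

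The Tnf window held the core 3 times and the Il13 window 4 times. At least 1 core lay in 54.2% of the 9594 promoters matched to tested genes, in 97 of the 177 matched genes lower in PEP-/- (54.8%) and in 17 of the 31 matched higher genes (54.8%). A core of 5 letters is common in sequence of this length, and these shares are close to the background.

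Of 65 listed genes of IgE receptor signalling 62 were tested and none passed, a count near the 1.86% called over all genes. Their log2 fold changes ran from -0.31 to 0.63 with a median of 0.12. The medians by role were 0.13 for the receptor chains, 0.17 for kinases, 0.12 for adaptors and 0.20 for inhibitors. For enzymes or exchange factors the median was 0.01, and for calcium channels 0.09. Fcer1a, the IgE-binding chain, stood at 6923 and 6615 CPM in PEP+/+ and 7673 and 7192 in PEP-/-. Lat2, an adaptor beside Lat, stood at 1167 and 1150 against 1226 and 1320 CPM. None of the 19 tested PEP partners and related phosphatases passed either, which is also near that share, with log2 fold changes from -0.15 to 0.42. Ptpn7, a phosphatase of MAP kinases, had 465 and 391 CPM in PEP+/+ and 465 and 386 in PEP-/-. Ptk2b, the kinase Pyk2, had 424 and 422 CPM in PEP+/+ and 472 and 527 in PEP-/-.

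Among the immediate early transcription factors, the first genes to rise after a stimulus, 0 of 35 passed and the median was 0.00. This count is near the 1.86% called over all genes. The AP-1 family had a median of -0.09 over 11 tested members and the EGR and NR4A families -0.17 over 7. Ier3 (1023 and 1819 CPM in PEP+/+, 784 and 1485 in PEP-/-) and Id2 (1110 and 904, 1105 and 1117) had the highest levels and overlapped. The feedback inhibitors (30 tested, DUSP phosphatases, Sprouty and SOCS proteins, RGS and mRNA decay factors) had no call, also near that share, and a median of 0.04. Of 32 NF-kB and NFAT genes only Peli2, a ubiquitin ligase of the Toll-like receptor pathway, passed (0.308% of all genes were called higher). It was higher in PEP-/-, at 0.851 and 0.225 CPM in PEP+/+ and 2.87 and 1.87 CPM in PEP-/-, which are low levels.

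Ribosome biogenesis, the making of ribosomal RNA and its assembly with proteins in the nucleolus, held the highest share of lower genes. All 26 listed genes were tested, all 26 had a negative log2 fold change (median -0.98, range -1.48 to -0.39), and 16 (61.5%) were called. Nop16, a nucleolar protein, had 29.5 and 49.7 CPM in PEP+/+ and 12.5 and 15.5 in PEP-/-. Polr1b, a core subunit of RNA polymerase I, had 17.1 and 22.3 against 7.38 and 8.37 CPM. Dkc1, the pseudouridine synthase of box H/ACA particles, had 59.6 and 34.7 against 24.8 and 14.3 CPM. In each of these the wild-type libraries stood apart from the PEP-/- libraries, with log2 fold changes of -1.48, -1.32 and -1.27 (adjusted p = 0.0115, 0.0136 and 0.00465, edgeR). Rrp9 and Nolc1 followed at -1.23 and -1.20. The median of the list was -0.85 in set 1, -1.06 in set 2 and -0.98 without PEP+/+ replicate 1, and Rrp9 passed in that fit (-1.38, adjusted p = 0.0496). The E-box CACGTG, searched because it is a letter string bound by Myc and related factors, lay in 2 of the 21 matched promoters of the list (9.52%) and in 8.43% of all matched promoters.

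Among 24 enzymes that make nucleotides, 11 were lower (1.56% over all genes tested), 13 did not pass, none was called higher, and the median was -0.66. This list was drawn up after the values were seen, so its counts are a description, as are those of the other lists. Of the 24 log2 fold changes 20 were negative. Ctps, CTP synthase, the last step to cytidine nucleotides, was the strongest called decrease after Ptpn22 among genes of at least 2 CPM. It had 25.5 and 15.5 CPM in PEP+/+ and 6.81 and 2.86 in PEP-/-, 4.41-fold lower (-2.14 ± 0.29, adjusted p = 0.00465, and 0.0583 without PEP+/+ replicate 1). Cad, which starts pyrimidine synthesis, had 50.1 and 44.3 against 17.7 and 14.2 CPM (-1.57). Umps, which completes UMP, reached -0.82. In the purine pathway Gart and Atic reached -1.15 and -0.74.

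Serine and one-carbon enzymes, which supply carbon units to nucleotides and methyl groups, gave 7 lower and 1 higher among 18 tested (1.56% and 0.308% over all genes), with a median of -0.67. Shmt2, the mitochondrial serine hydroxymethyltransferase, had 56.7 and 63.6 CPM in PEP+/+ and 27.7 and 27.4 in PEP-/- (-1.13 ± 0.14, adjusted p = 0.00465). Its cytosolic counterpart Shmt1 had 16.6 and 8.21 against 5.5 and 3.03 CPM (-1.55). Phgdh, the first enzyme of serine synthesis, had 14.1 and 14.6 against 6.73 and 3.96 CPM (-1.46). Mthfd1 and Mthfd2, folate enzymes of cytosol and mitochondria, reached -1.31 and -1.25. Slc19a1, the reduced folate carrier, fell too, from 11.4 and 5.85 CPM to 2.95 and 1.76 CPM (-1.88). The enzyme that was higher was Gss, glutathione synthetase, at 87.2 and 67.0 CPM in PEP+/+ and 136 and 119 in PEP-/- (0.74).

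DNA replication genes shifted in the same direction with a different layout. All 30 listed genes had a negative log2 fold change (median -0.74), and 13 (43.3%) were called, where 47% of all genes tested were negative and 1.56% were called lower. Mcm2, of the replicative helicase, had 112 and 48.7 CPM in PEP+/+ and 58.5 and 25.3 in PEP-/-. Mcm7, of the same helicase, had 121 and 57.5 against 65.6 and 28.3 CPM. For these 2 genes set 1 was about as much above set 2 as wild type was above PEP-/-, so the groups overlapped and the difference showed within sets. Over the list the groups did not overlap for 6 of 30 genes, where 24.8% of all genes tested did not overlap. Pold1 was 1 of them, at 49.2 and 47.3 CPM in PEP+/+ and 30.6 and 26.9 in PEP-/-. Log2 fold changes of the 5 largest among the called members (Gins2, Mcm7, Mcm2, Cdc45 and Mcm10) lay between -0.96 and -0.90, and without PEP+/+ replicate 1 between -0.71 and -0.62, with no adjusted p under 0.05. The median of the list in that fit was -0.56. Mitosis genes had a median of -0.07, and 0 of 25 were called, a count near the 1.86% called over all genes.

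Further called decreases were large in single genes. Srm, spermidine synthase, had 56.0 and 94.9 CPM in PEP+/+ and 20.9 and 21 in PEP-/- (-1.80 ± 0.25, adjusted p = 0.0049, and 0.0496 without PEP+/+ replicate 1). Asns, asparagine synthetase and a target of the integrated stress response, had 16.4 and 11.6 against 4.51 and 3.96 CPM (-1.71). Together with Cars, a cysteinyl-tRNA synthetase (-0.93), it made 2 called of 20 tested genes of the integrated stress response, whose median was -0.33. Over all genes tested 1.56% were called lower. Ifrd2 had 14.0 and 17.7 against 4.27 and 4.02 CPM (-1.93, adjusted p = 0.0496 without PEP+/+ replicate 1). The fatty acid binding protein gene Fabp5 (-2.02), Gemin6 of the SMN complex (-1.76) and Ung, uracil-DNA glycosylase (-1.76), had fewer than 7 CPM in each of the 4 IgE DNP libraries. An unnamed gene, ENSMUSG00000094126, had 34.1 and 27.5 against 12.4 and 4.51 CPM (-1.95, adjusted p = 0.0238).

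**Figure D4:**
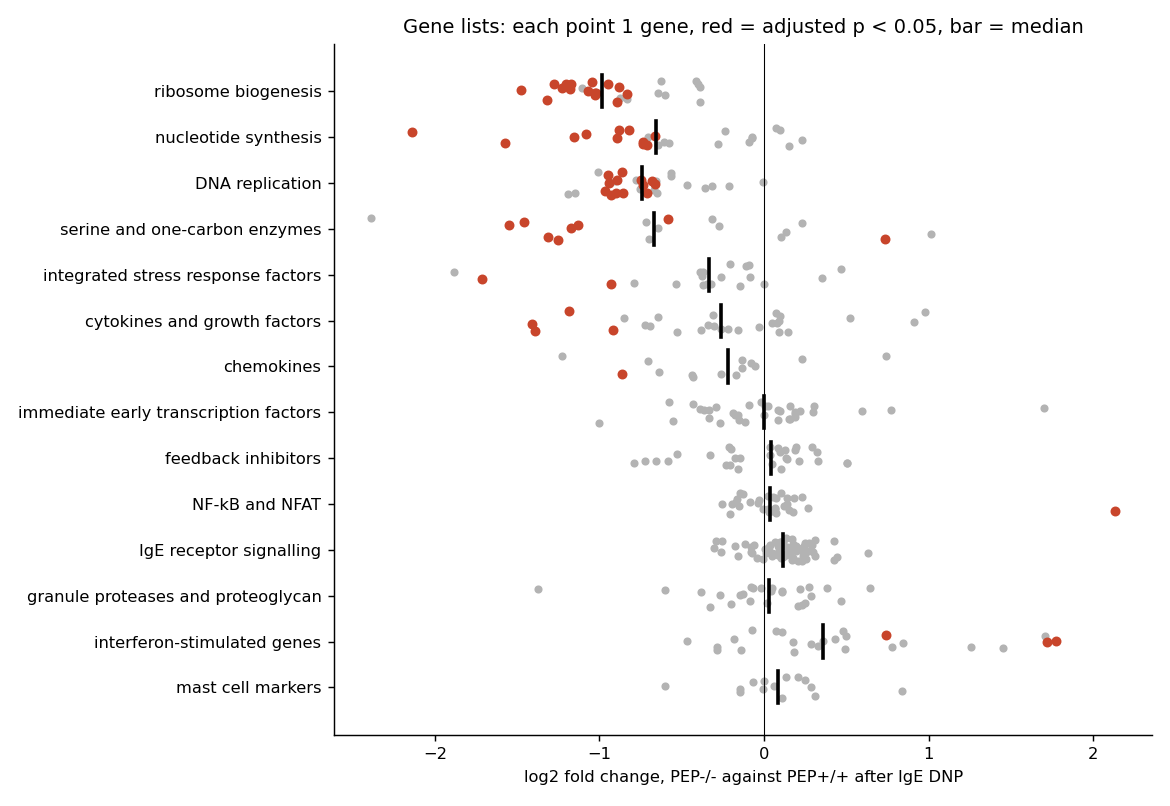
Log2 fold change of PEP-/- against PEP+/+ after IgE DNP for the tested genes of 14 lists, 1 point per gene, red where the adjusted p is under 0.05 and a black bar at the median. Ribosome biogenesis lies wholly below 0 with a median of -0.98, as does DNA replication at -0.74, while IgE receptor signalling is centred at 0.12 with no red point.

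The 41 higher genes were more mixed. Of 35 interferon-stimulated genes 25 were tested, 3 were higher (Ifi27l2a, Irf7 and Gbp2), none was lower, and the median was 0.36 (0.32 without PEP+/+ replicate 1). Over all genes tested 0.308% were called higher. Ifi27l2a had 7.09 and 11.9 CPM in PEP+/+ and 28.9 and 34.8 in PEP-/-, 3.42-fold higher (1.77 ± 0.28, adjusted p = 0.00828). Gbp2, a guanylate-binding GTPase, had 20.7 and 17.0 against 34.5 and 28.4 CPM (0.74). Irf7, a transcription factor of the interferon response, was low, at 0.473 and 1.46 against 2.87 and 3.30 CPM (1.72). The wild-type libraries were below the PEP-/- libraries for all 3, and none passed without PEP+/+ replicate 1.

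The Gbp2 promoter is shown because it was the called member of this list with a match, in the 250 bases before the start, to the letters GAAA, any 2 bases and GAAA (found in interferon response elements) or their reverse complement, set in capitals (GRCm38.p6, plus strand, RefSeq).
Gbp2 (chr3:142620413-142620662): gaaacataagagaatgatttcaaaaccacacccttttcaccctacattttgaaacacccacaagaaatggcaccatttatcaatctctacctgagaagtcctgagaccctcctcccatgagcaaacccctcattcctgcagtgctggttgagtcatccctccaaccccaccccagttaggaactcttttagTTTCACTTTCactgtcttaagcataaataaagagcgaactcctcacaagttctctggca

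These letters lay in 9 of the 20 matched promoters of the list, in 2.65% of all matched promoters, in 3 of the 31 matched higher genes (9.68%) and in 1 of the 177 matched lower genes (0.565%).

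The most increased gene of at least 2 CPM was Gm3608, at 33.6 and 6.30 CPM in PEP+/+ and 96.0 and 36.7 in PEP-/-. It was 3.88-fold higher (1.96 ± 0.27, adjusted p = 0.00465) and passed without PEP+/+ replicate 1 (2.36, adjusted p = 0.0496). Stab2, a scavenger receptor, had 7.76 and 13.7 against 28.2 and 28.5 CPM (1.41), and Atp1b2, a sodium pump subunit, 10.8 and 15.5 against 28.1 and 33.0 CPM (1.23). Erv3, an endogenous retroviral gene, had 27.4 and 15.1 against 46.2 and 47.1 CPM (1.22). Arhgef28, Gm14304 and Smpx lay between 1.20 and 1.59. Tcp11l2, among the smallest p-values, had 25.6 and 19.9 against 49.9 and 35.7 CPM (0.90).

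Chemokine receptors used by monocytes were also among the higher genes. Cx3cr1, the fractalkine receptor, had 101 and 63.6 CPM in PEP+/+ and 158 and 139 in PEP-/- (0.88 ± 0.16, adjusted p = 0.0136). Ccr2, the receptor for Ccl2 and Ccl7, had 25.6 and 6.75 against 51.1 and 15.9 CPM (1.11), and its groups overlapped. These are 2 of 13 listed macrophage and monocyte markers, of which 7 were tested, where 0.308% of all genes tested were called higher. The summed level of the 13 was 140 and 79.8 CPM in PEP+/+ and 224 and 173 CPM in PEP-/-, most of it from these genes. Of the 7 tested, 6 had a positive log2 fold change and the median was 0.88 (1.15 without PEP+/+ replicate 1), with Lyz2 at 1.15 and C1qc at 1.23, which did not pass. Mrc1 and C1qa were at 0 in all 4 libraries. The part of other cell types in the higher genes was not tested. By comparison, 14 mast cell markers summed to 78040 and 82250 CPM in PEP+/+ and 83690 and 94670 in PEP-/-. None was called, which is near the 1.86% over all genes.

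Nearly all called genes had the same direction without antigen. The other treatments share no library with the IgE DNP samples, although all entered 1 model. Whether they share cultures or mice with these samples is not given. The treatments are therefore not separate tests of genotype, and a difference between cultures cannot be told apart from one of genotype. Of the 207 lower genes, 205 had a negative log2 fold change after IgE alone, 204 with IgE DEX treatment and 203 with IgE DNP DEX, where 45.4%, 48.7% and 48.6% of all genes tested did. Their medians were -0.79, -0.50 and -0.44. The lower genes with a positive value after IgE alone were Csf2 (2.04) and Ccl7 (0.14), a cytokine and a chemokine gene. Of the 41 higher genes 41, 40 and 40 kept their direction, with medians of 0.73, 0.64 and 0.50. After IgE alone 115 of the 207 and 21 of the 41 were themselves called, where 1.69% of all genes were (1.39% lower, 0.301% higher). With IgE DEX treatment 15 and 9 were called (0.564% of all genes, 0.338% lower, 0.225% higher), and with IgE DNP DEX 1 and 1 (0.0225%, 0.00752% lower, 0.015% higher).

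**Figure D5:**
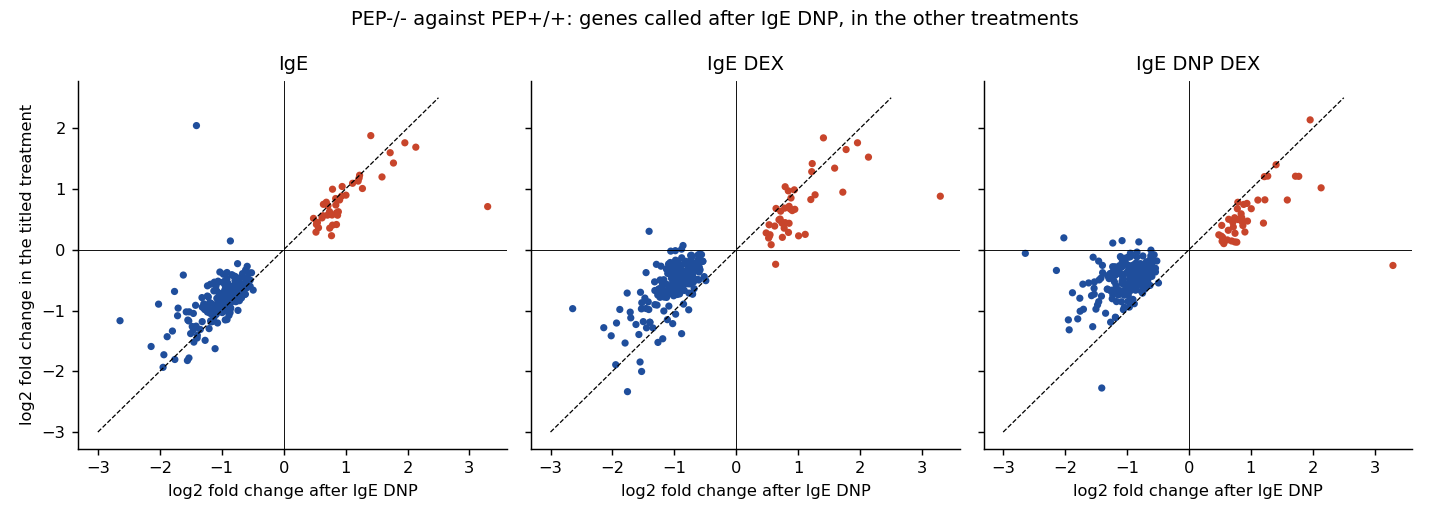
Log2 fold change of PEP-/- against PEP+/+ after IgE DNP (horizontal) against the same quantity after IgE, IgE DEX and IgE DNP DEX (vertical) for the genes called after IgE DNP except Ptpn22, which lies outside the range. Blue points are genes lower and red points genes higher after IgE DNP, the dashed line marks equal values, and the lower genes keep medians of -0.79, -0.50 and -0.44.

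Whether antigen changed the genotype difference was tested directly. No gene had a difference after IgE DNP that departed from that after IgE alone (0 of 13305 by edgeR, 143 at an unadjusted p under 0.05, 0 by DESeq2). Against the mean of the 3 other treatments there were also 0 calls (343 at an unadjusted p under 0.05), and DESeq2 called Ptpn22 alone (adjusted p = 0.0397). The unadjusted counts of 143 and 343 lie below the share of 0.05 of genes that no difference would give. These counts do not show that the effects were equal. For Tnf the log2 fold change was -1.39 after IgE DNP and -1.41 after IgE. This near-equality is poorly determined, because Tnf after IgE stood at only 1.62 and 1.82 CPM in PEP+/+ and 0.820 and 0.566 in PEP-/-. For Il13 the values were -1.18 and -0.57 and for Ccl7 -0.86 and 0.14, with differences of -0.61 ± 0.41 and -1.0 ± 0.37. For Csf2 they were -1.41 and 2.04, so its sign was opposite after IgE alone, and this difference was not among the calls either.

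The called genes were also set beside the antigen response. In the dexamethasone-treated cells, which share no library with the comparison, antigen changed 37.6% of all genes tested, raising 18.4% and lowering 19.2%. Of the 207 lower genes 28 were raised and 32 lowered there, and of the 41 higher genes 6 were raised and 9 lowered. Tnf, Il13, Csf2 and Ccl7 were among those raised, by 4.57, 5.23, 5.48 and 4.80 on the log2 scale, and Osm was not (-0.26, adjusted p = 0.166).

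Genes beside the targeted locus were counted separately. Ptpn22 lies on chromosome 3 (GRCm38, 103859795 to 103912247, plus strand). Of 171 tested genes within 10 Mb on either side 3 were called (1.75%), near the share over all genes, and the median was 0.01. These were Wdr77, Slc16a1 and Phgdh, all lower in PEP-/-. Wdr77, a partner of the arginine methyltransferase Prmt5, had 65.5 and 82.3 CPM in PEP+/+ and 38.8 and 39.6 in PEP-/- (-0.90). Slc16a1, the lactate transporter MCT1, had 29.7 and 13.8 against 12.7 and 7.04 CPM (-1.11).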

How the data were processed

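RNA of 16 BMMC samples was sequenced from poly(A)-selected, stranded libraries. Per the labels and the study's methods, the authors aligned reads to GRCm38 with TopHat2 and counted them per gene with HTSeq. The deposited files hold whole-number counts per gene, not normalized, plus rows of unassigned reads (29.1% to 49.6% of the total), which were left out. Reads with several alignments were not counted, and the strand setting is not given in the sources used here, so overlapping, antisense and near-identical genes are uncertain. The deposited files hold no sample columns beyond these.

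Names came from GENCODE M21 (37693 of 39179 identifiers, 96.21%). R 4.3.3 and edgeR 4.0.16 were used. filterByExpr (minimum count 10) chose the genes, TMM set the scale, and quasi-likelihood models (glmQLFit, glmQLFTest) were fitted to all 16 samples with condition means, the replicate set as a block, 7 residual degrees of freedom and Benjamini-Hochberg adjustment. DESeq2 1.42.0 was an alternative. Pairing was checked by correlating deviations of the samples from their condition means within sets. Over 28 pairs of conditions the correlation was 0.453 to 0.799, so numbers were taken to pair the samples, although the labels do not say what a set shares. Common dispersion gave a coefficient of variation of 0.133 with the block and 0.312 without. The 4 libraries held 9822410 to 20547141 reads on genes. The script was tested on simulated data.

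Genes were named by rule: Ptpn22 and those the study names, the 10 largest called changes in each direction with a mean of at least 2 CPM, the 3 smallest p-values in each direction, up to 5 called members (or the 2 highest) of each list, called genes within 10 Mb of Ptpn22, and the 4 highest RNAs without poly(A) tail. Other genes named were chosen after their values were seen. Of the genes the rule names, some of lists without a call are not described, and 1 other gene is not reported here. The comparison, lists and rule were chosen with earlier results of these data known.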

Additional observations from a re-analysis of the deposited data

How the results depend on the processing

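The 248 genotype calls rested on the pairing: the fit without the replicate block called 1 gene, 0 higher and 1 lower. Leaving out 1 of the 4 libraries gave 1 to 120 calls in all, 0 to 12 higher and 1 to 108 lower. DESeq2 with the block gave 436 (115 higher, 321 lower) and no filter 462 (148 and 314). Fitting the 4 samples alone gave 1297 (473 and 824), and the samples without DEX 740 (215 and 525). The untailed share as a covariate gave 29 (1 and 28), and requiring an absolute log2 fold change of 1 left 100 (13 and 87). Of alternatives chosen after seeing the data, the share of the 6 loci as a covariate gave 48 (2 and 46), and leaving out both libraries with the highest share gave 1 (0 and 1). DESeq2's size factors, the stricter filter and the removal of untailed RNAs, alone or with the 6 loci, stayed within 1.5 times of the calls.

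Every named gene called in the main analysis kept its sign under each alternative that could be fitted. These fits reuse libraries that gave the calls, so the kept signs are a description and no separate support. For the difference from IgE alone, no filter gave 2 calls. For the difference from the mean of the other treatments, DESeq2 gave 1, no filter 20, and leaving out a library 0 to 3. Within 20 Mb of Ptpn22, 5 genes were called against 3 within 10 Mb. The untailed share of PEP+/+ replicate 1 was 2.20 times the median of the other 3 libraries, 0.886 times for histones alone and 3.54 times for small structural RNAs alone.

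Some genes that were not called reversed sign. With 1 library left out, the log2 fold change ran from -4.82 to 0.18 for Rn7sk, -5.11 to 0.08 for Rpph1, -5.18 to 0.54 for Gm42418, -2.54 to 0.76 for Lars2, -0.019 to 0.16 for Rplp0, -0.99 to 0.66 for Il5 and -0.89 to 0.29 for Ptgs2. With both libraries of the highest share left out it was 0.061 for Rn7sk, 0.42 for Gm42418, 0.64 for Lars2 and -0.017 for Rplp0. With the untailed share as a covariate it was 0.21 for Gm42418 and 0.51 for Lars2, and with the share of the 6 loci 0.22 for Lars2. For changes that followed a covariate or another scaling, the cause was not tested. With 2 libraries a group and 1 after leaving a library out, precision limits every count.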

Other observations

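Genes of granule proteins and of amine and lipid mediators had no call. For these and the lists below, counts of 0 are near the 1.86% called over all genes tested. None of 26 tested granule protease and proteoglycan genes passed (median log2 fold change 0.03), and Cpa3, mast cell carboxypeptidase, stood at 39050 and 34520 CPM in PEP+/+ and 47680 and 37770 CPM in PEP-/-. None of 17 genes of amine and lipid mediators passed (median -0.06), with Tph1, of serotonin synthesis, at 4931 and 4536 CPM in PEP+/+ and 3821 and 4234 CPM in PEP-/-. Cholesterol synthesis and uptake (0 of 23 called, median 0.11) and glycolysis and glucose transport (0 of 21, median 0.07) had none either. Marker lists of neutrophils, basophils, eosinophils, T cells, B cells, dendritic cells, erythroid cells and stroma held no called gene. At most 4 genes of each were tested, and no T or B cell marker reached the filter.

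The transcription factor gene Myc, chosen after its values were seen, is given by its values. After IgE alone it stood at 20.8 and 50.1 CPM in PEP+/+ and 11.5 and 15.9 CPM in PEP-/- (log2 fold change -1.33, adjusted p = 0.0277, edgeR). After IgE DNP it stood at 59.4 and 61.1 CPM in PEP+/+ and 61.4 and 77.7 CPM in PEP-/- (0.19, adjusted p = 0.804). The difference between these was 1.52 ± 0.37 on the log2 scale and was not among the calls.

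Cth, of transsulfuration, lay just past the threshold (-2.39, adjusted p = 0.0541) at 0.851 and 1.80 CPM in PEP+/+ and 0.164 and 0.330 CPM in PEP-/-.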
